A study of Arabidopsis thaliana with 24 samples.

Results

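Transcript levels of 4 GH3 genes of Arabidopsis thaliana, GH3.1 (AT2G14960), GH3.3 (AT2G23170), GH3.4 (AT1G59500) and WES1 (AT4G27260, also named GH3.5), were followed over 24 Affymetrix arrays in 8 groups of 3. They were chosen by name, as the probe sets that the platform annotation pairs with 1 of these genes alone, and each gene had 1 such probe set, so 4 of the 17504 probe sets with a gene, and 4 of 16419 genes with a probe set of their own, are described. Plants were 28 days old and were harvested 5 h after the treatments began. The light treatments lowered the red to far-red ratio (R:FR), which plants use to sense neighbours, from 2.3 to 0.05.

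Control plants stayed in white light at R:FR 2.3. In the local far-red (FR) group only the leaf tip received R:FR 0.05, while the rest of the plant, the sampled petiole base included, stayed at 2.3. In the whole FR group the entire rosette received R:FR 0.05. In the touch group plants were touched under the control light, and the labels do not say how. All groups shared a photosynthetically active radiation of 140 µmol per square metre and second, a day of 9 h and 20 °C. From the fifth-youngest leaf of each plant the top 2.5 mm of the lamina (leaf tip) and the lowest 1.5 mm of the petiole (petiole base) were taken, and the labels call the 3 arrays of a group independent biological replicates. The labels name no mutant or transgene.

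GH3 enzymes join small acids to amino acids. The enzymes of GH3.1, GH3.3, GH3.4 and WES1 belong to the subfamily that acts on indole-3-acetic acid, the main natural auxin, and the resulting conjugates are stored or broken down, so these enzymes lower the pool of free auxin. Transcripts of several GH3 genes rise quickly after auxin treatment, and for that reason they are widely used as auxin response markers. In low R:FR, leaves make auxin and move it towards the petiole, where cell elongation and upward bending of the leaf depend on it.

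Values are log2 RMA signals as the authors deposited them, so a difference of 1 is a doubling of the signal. They carry no detection call, and levels are not compared between genes because each probe set has its own brightness. The within-group correlation of arrays was 0.980 to 0.992 over all tested probe sets. The tissue labels were checked with marker genes: both measured light harvesting genes of 14 listed were higher in the control tip than in the control base (LHCB4.2 by 1.12, and LHCB4.1 by 0.999), and AUR1, a kinase gene of dividing cells and the 1 measured of 5 such markers, was lower in the tip, at -2.74. The guard cell lineage genes, also planned as a tip check, did not share a direction. Of the 3 measured of 4, FMA was higher in the control tip (1.26, limma adjusted p = 7.286e-05). SPCH was lower there (-3.15, limma adjusted p = 0.0003057), and MUTE, at -0.35, did not pass the test. These are tissue samples, in which fewer cells of a type and less RNA per cell cannot be told apart. Differences were tested in limma over all 17504 probe sets and are called at a Benjamini-Hochberg adjusted p under 0.05, and intervals are 95% intervals of the log2 difference.

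At the leaf tip, GH3.3 rose under both far-red treatments. In the control tip its 3 arrays read 2.244, 1.608 and 1.625, and in the touched tip 2.273, 1.936 and 1.414. Under local FR the tip arrays read 6.267, 6.718 and 6.601, and under whole FR 6.826, 6.519 and 7.627. All 6 far-red tip arrays lay above all control and touch tip arrays. The mean was 1.83 ± 0.36 (SD, n = 3) in the control tip, 6.53 ± 0.23 under local FR and 6.99 ± 0.57 under whole FR. Whether the probe set was above background in the control tip was not tested, so the folds at the tip are folds of the signal, not of the transcript.

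**Figure D1:**
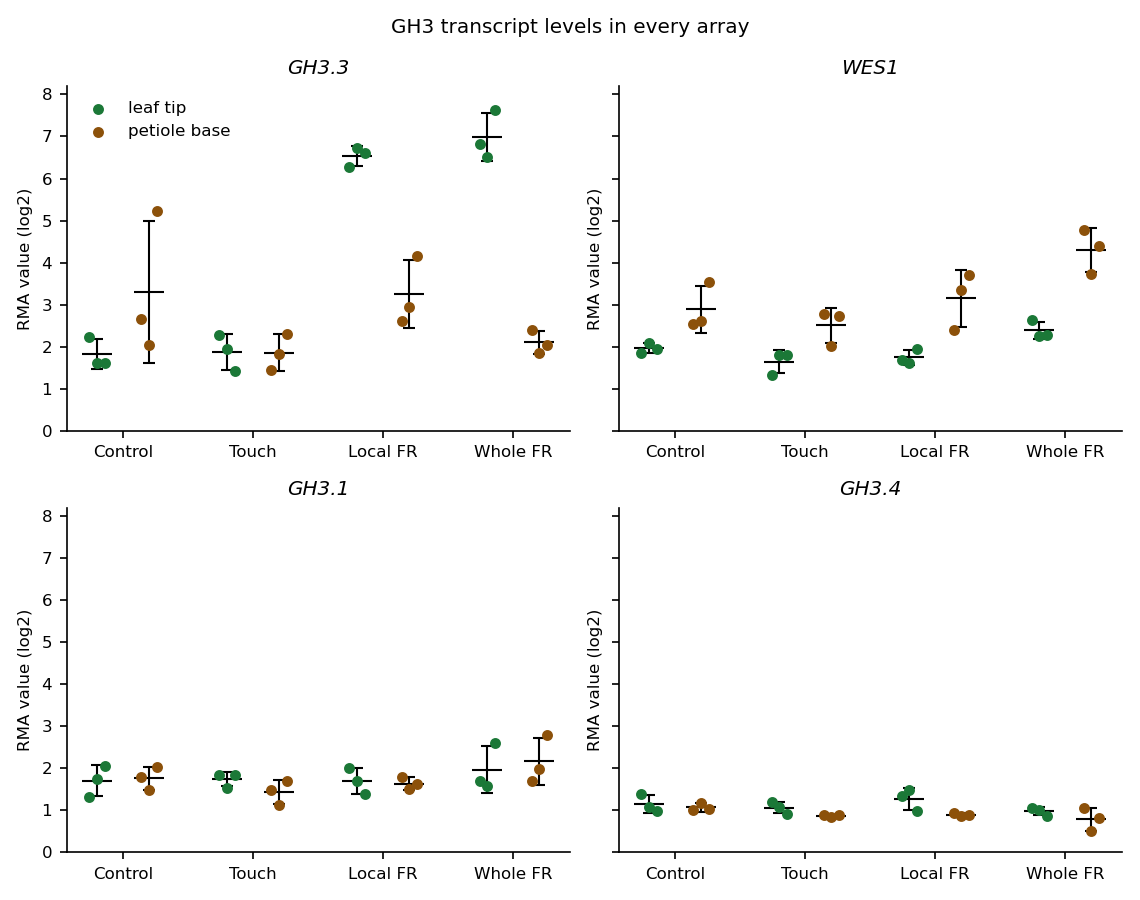
RMA value (log2) of each of the 4 GH3 genes in every array, by treatment, with leaf tip in green and petiole base in brown; horizontal lines are group means and bars are ±1 SD (n = 3). GH3.3 tip arrays under local and whole FR lie between 6.267 and 7.627, WES1 is highest in the whole FR petiole base at 3.736 to 4.772, and GH3.1 and GH3.4 stay low in every array, at no more than 2.791 and 1.475.

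The local FR comparison at the tip asks how a GH3 gene responds in the tissue that is itself lit. The GH3.3 signal was 26.0-fold higher than in the control tip, with a 95% interval of 3.59 to 5.81 on the log2 scale around the difference of 4.70. It was the only one of the 4 genes called, in a comparison that called 2.05% of the tested probe sets, and the groups did not overlap for 15.7% of them. The other genes had differences of 0.11 (GH3.4, -0.19 to 0.42), -0.01 (GH3.1, -0.57 to 0.56) and -0.21 (WES1, -0.85 to 0.43), and their local FR and control arrays overlapped.

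Under whole FR the GH3.3 signal was 35.9-fold higher at the tip (log2 difference 5.17, 4.06 to 6.27, limma adjusted p = 9.551e-07). GH3.3 was again the only one of the 4 called, where 7.91% of the tested probe sets were called and 21.4% had groups that did not overlap. WES1 read 2.629, 2.258 and 2.278 under whole FR against 1.855, 2.091 and 1.940 in the control tip. Its 3 whole FR arrays lay above the 3 control arrays, yet the difference of 0.43 (-0.21 to 1.06) was not called (adjusted p = 0.493). GH3.1 had a difference of 0.26 (-0.30 to 0.83) and GH3.4 of -0.17 (-0.47 to 0.13), with overlapping arrays.

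The 2 far-red treatments gave the tip the same R:FR and differed in whether the rest of the rosette was lit. None of the 4 genes was called between them at the tip, where 2.23% of the tested probe sets were. GH3.3 differed by 0.46 (-0.65 to 1.57, adjusted p = 0.8224), an interval that leaves room for a difference of either sign. WES1 was 0.64 higher under whole FR (0.00 to 1.27, adjusted p = 0.3962), with no overlap between its 3 arrays under each treatment. Groups did not overlap for 16.7% of the tested probe sets there. GH3.4 had a difference of -0.29 (-0.59 to 0.01).

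The touch group kept the control light. GH3.3 in the touched tip differed from the control tip by 0.05 (-1.06 to 1.16, adjusted p = 0.992), and none of the 4 genes was called in that comparison, where 0.246% of the tested probe sets were. Measured against touch in place of the control, GH3.3 at the tip was higher by 4.65 under local FR (adjusted p = 1.522e-05) and by 5.12 under whole FR (adjusted p = 1.107e-06). It was the 1 member called in each, where 1.38% and 7.33% of the tested probe sets were called. Groups did not overlap for 15% and 21.8% of the tested probe sets. WES1 in the touched tip, at 1.323, 1.816 and 1.793, lay below all 3 control arrays, but by 0.32 on average (difference -0.32, -0.95 to 0.32), which was not called. Between touch and control at the tip, 12.5% of the tested probe sets had groups that did not overlap.

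**Figure D2:**
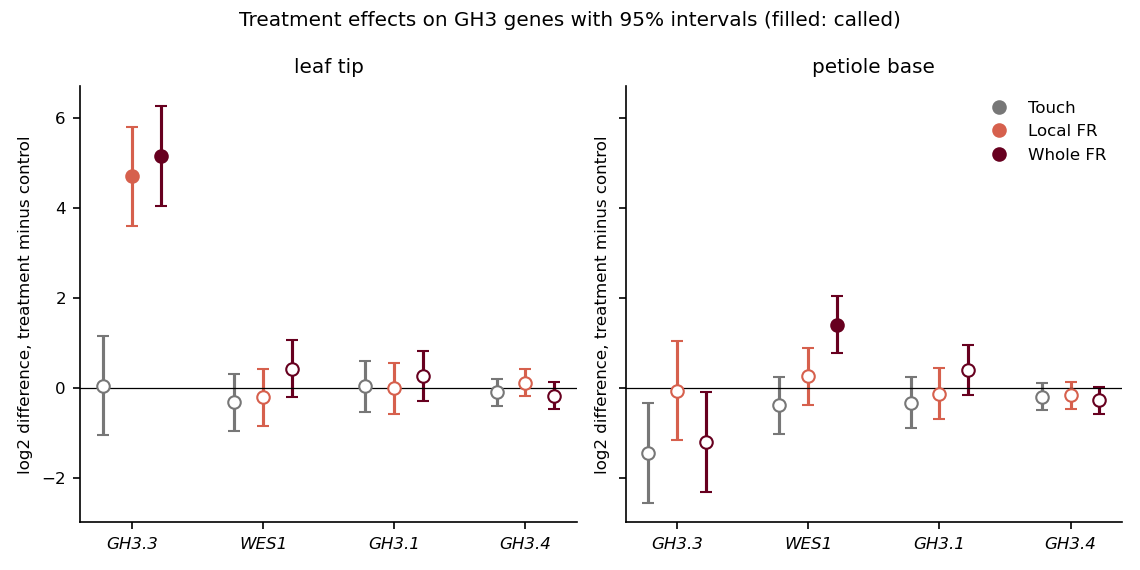
Log2 difference between each treatment and the control for the 4 genes in the leaf tip (left) and the petiole base (right), with 95% intervals from limma; filled points are called at adjusted p under 0.05. Called points are GH3.3 at the tip under local FR (4.70) and whole FR (5.17), and WES1 at the base under whole FR (1.41).

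In the petiole base the only one of the 4 genes called against control was WES1, and only under whole FR. Its enzyme can use salicylic acid as well as auxin. The WES1 control arrays read 2.531, 2.615 and 3.539, its touch arrays 2.775, 2.021 and 2.724, and its local FR arrays 2.400, 3.340 and 3.715. Under whole FR the base arrays read 4.772, 3.736 and 4.402, above every other base array of this gene. The mean was 2.90 ± 0.56 in the control base and 4.30 ± 0.53 under whole FR (SD, n = 3).

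Whole FR raised the WES1 signal at the base 2.65-fold over the control (log2 difference 1.41, 0.77 to 2.04, limma adjusted p = 0.002444). WES1 was the only one of the 4 genes called there, in a comparison that called 13.3% of the tested probe sets and left the groups of 26% without overlap. It ranked 203 in its direction among single-gene probe sets. Against touch the difference was 1.80 (1.16 to 2.43, adjusted p = 0.0001721), with 15.3% of the tested probe sets called, 32% without overlap and WES1 the 1 member called. Against local FR it was 1.15 (0.52 to 1.79, adjusted p = 0.02609), with 5.47% called, 21.3% without overlap and WES1 again the 1 member called. That last call is the least stable of these: it was lost when local FR base replicate 1 (0.78, adjusted p = 0.1991), whole FR base replicate 1 (0.92, adjusted p = 0.155) or whole FR base replicate 3 (1.102, adjusted p = 0.09681) was left out, and in a fit of only the groups compared (adjusted p = 0.1257).

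When only the distant tip was lit, WES1 at the base differed from the control by 0.26 (-0.38 to 0.89, adjusted p = 0.9314), and its arrays overlapped those of the control. None of the 4 genes was called in this comparison, where 1.06% of the tested probe sets were. None was called either between local FR and touch at the base, where 3.81% of the tested probe sets were, or between touch and control at the base, where 0.211% were. WES1 had a difference of 0.65 (0.01 to 1.28, adjusted p = 0.329) in the former and of -0.39 (-1.02 to 0.25, adjusted p = 0.7371) in the latter.

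GH3.3 at the base passed the test in no comparison of treatments, and its arrays spread widely within the control and local FR groups. The control arrays read 2.656, 2.047 and 5.218, the touch arrays 1.450, 1.823 and 2.315, the local FR arrays 2.620, 2.956 and 4.162, and the whole FR arrays 2.407, 1.863 and 2.051. Control replicate 3 was the highest of the 12 base arrays and local FR replicate 3 the next. The difference from control was -0.06 (-1.17 to 1.05) under local FR, -1.20 (-2.31 to -0.09, adjusted p = 0.1753) under whole FR and -1.44 (-2.55 to -0.34, adjusted p = 0.2734) after touch. Its 3 local FR arrays lay above its whole FR arrays (whole minus local -1.14, adjusted p = 0.3044) and above its touch arrays (1.38, adjusted p = 0.1843), and neither difference was called. Groups did not overlap for 21.3% and 20.8% of the tested probe sets in these comparisons.

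Control base replicate 3 set the size of these differences. Without it they were 0.89 (adjusted p = 0.4756) for local FR, -0.24 (adjusted p = 0.8417) for whole FR and -0.49 (adjusted p = 0.9378) for touch. Without control base replicate 2, the lowest of the 3, GH3.3 was instead called lower under whole FR (-1.83, adjusted p = 0.02278) and after touch (-2.07, adjusted p = 0.03599). With each array left out in turn the local FR difference ran from -0.69 to 0.89 and so took either sign, while the whole FR difference, at -1.83 to -0.24, and the touch difference, at -2.07 to -0.49, stayed negative.

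Control base replicate 3 was also the highest base array for some genes of the other lists, though not for all. SPCH, a transcription factor gene that starts the stomatal lineage, read 6.038, 3.463 and 6.836 in the control base, 2.986, 2.892 and 3.006 after touch, 3.212, 3.571 and 5.417 under local FR, and 3.438, 2.924 and 3.813 under whole FR. Control replicate 3 was the highest of the 12 base arrays for SPCH, for AUR1 (6.837) and for the auxin synthesis gene YUC4 (3.715), as it was for GH3.3. Local FR replicate 3 ranked from 2 to 3 for these genes and 2 for GH3.3. FMA, which acts at the end of the stomatal lineage, had another order: control replicate 3, at 4.364, and local FR replicate 3, at 4.296, ranked 11 and 12 of 12. MUTE, which acts between SPCH and FMA, was low throughout, at 1.139 to 1.779, with control replicate 3 the highest. The log2 values of the 3 measured of 4 guard cell lineage markers were also added up in each array. This sum ran from 9.437 to 12.979 in the control base and 9.481 to 9.686 after touch. It ran from 9.653 to 11.1 under local FR and 8.992 to 9.574 under whole FR, and SPCH carries most of its range. As FMA and SPCH had different orders, the sum is no measure of the amount of these cells. The part of these cells in the GH3.3 values was not tested.

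WES1 shared that order only in part. Control base replicate 3 was its rank 5 array of 12, behind all 3 whole FR arrays and local FR replicate 3. Within the groups, local FR replicate 3 was the highest local FR array (3.715 against 2.400 and 3.340). Control replicate 3 was likewise the highest control array (3.539 against 2.531 and 2.615). Without that control array the whole FR difference at the base was 1.73 (adjusted p = 0.000554), and it ranged from 1.17 to 1.73 when each of the 6 arrays was left out in turn. Of the guard cell lineage markers SPCH fell in the same comparison (-2.05, adjusted p = 0.02412), but without control base replicate 3 it did not pass the test (-1.36, adjusted p = 0.1897). FMA (0.10) and MUTE (-0.21) were not called. Of the light harvesting genes LHCB4.2 fell (-0.69, adjusted p = 0.001305), also without that array (-0.77, adjusted p = 0.001665), and LHCB4.1 was not called (-0.20). The part of these markers in the WES1 difference was not tested.

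**Figure D3:**
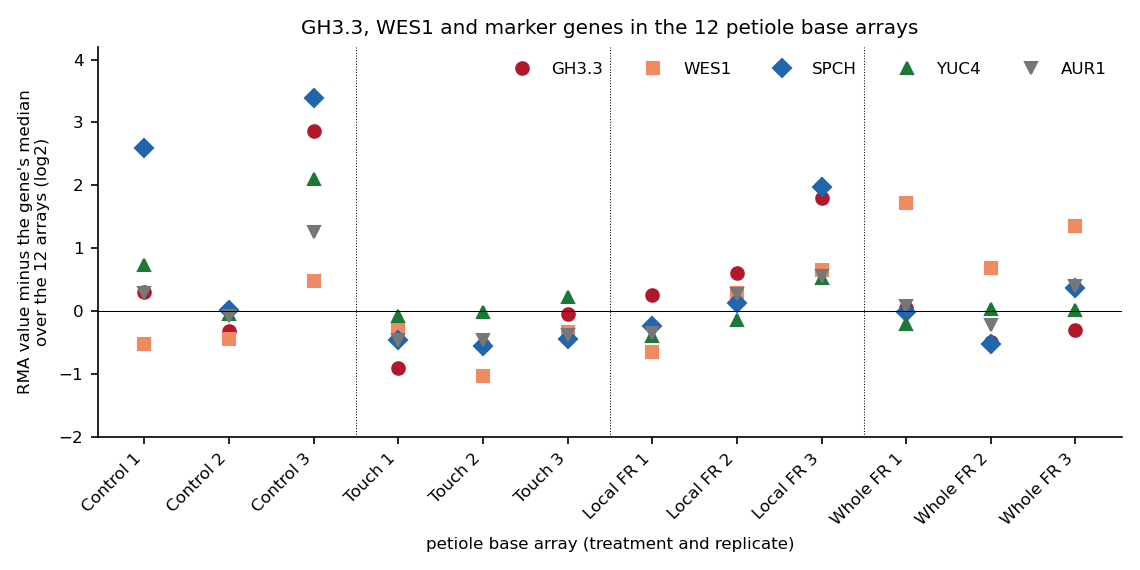
RMA value minus the gene's median over the 12 petiole base arrays (log2) for GH3.3, WES1, the stomatal lineage gene SPCH, the auxin synthesis gene YUC4 and the dividing cell gene AUR1, by array. Control replicate 3 is the highest array for all but WES1, whose 3 highest arrays are those of whole FR.

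GH3.1 and GH3.4, genes of the same auxin-conjugating subfamily, were called in none of the 19 comparisons. GH3.1 ranged from 1.122 to 2.791 over the 12 base arrays. Its 1.707, 1.988 and 2.791 in the whole FR base lay above its 1.478, 1.122 and 1.705 in the touched base, by 0.73 on average (0.16 to 1.29, adjusted p = 0.07927). Groups did not overlap for 32% of the tested probe sets between whole FR and touch at the base. Against the control base, at 1.800, 1.472 and 2.023, whole FR differed by 0.40 (-0.17 to 0.96, adjusted p = 0.4604) and the arrays overlapped.

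GH3.4 had a dim probe set. Its group means ran from 0.79 ± 0.28 in the whole FR base to 1.27 ± 0.25 in the local FR tip, and its mean of 1.01 over all arrays placed it in the dimmest 30% of the tested probe sets. Its intervals, such as -0.19 to 0.42 for local FR at the tip and -0.58 to 0.02 for whole FR at the base, bound the change in this signal, and whether the probe set detects the transcript at this level was not tested. The largest of its differences was between tip and base under local FR, where 1.353, 1.475 and 0.988 stood above 0.933, 0.876 and 0.887 (0.37, 0.07 to 0.67, adjusted p = 0.05831). At the base its control arrays, at 1.001 to 1.181, lay above its local FR arrays (difference -0.17) and its touch arrays (-0.20). Neither difference was called, and groups did not overlap for 13.1% and 14.8% of the tested probe sets. After touch its tip arrays lay above its base arrays by 0.19, also not called.

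The order of the 8 groups differed between GH3.3 and WES1. For GH3.3 the whole FR tip (6.99) and local FR tip (6.53) came first with overlapping arrays, then, after a gap of 3.22 without overlap, the control base (3.31 ± 1.68) and the local FR base (3.25 ± 0.81), which overlapped. The whole FR base (2.11 ± 0.28), touched tip (1.87 ± 0.43), touched base (1.86 ± 0.43) and control tip (1.83) came last, and neighbours among them overlapped. For WES1 the whole FR base (4.30) came first, without overlap with the local FR base (3.15 ± 0.68), which overlapped the control base (2.90), as that did the touched base (2.51 ± 0.42). The touched base overlapped the whole FR tip (2.39 ± 0.21). Without overlap with that group, the control tip (1.96 ± 0.12), local FR tip (1.75 ± 0.17) and touched tip (1.64 ± 0.28) lay at the bottom, and neighbours among them overlapped. For GH3.1 and for GH3.4 every pair of neighbours in the order overlapped.

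Set tip against base, WES1 was higher in the base in all 4 treatments, and GH3.3 was higher in the tip under both far-red treatments. WES1 differed by -0.93 in the control (adjusted p = 0.02465), -0.86 after touch (adjusted p = 0.04299), -1.40 under local FR (adjusted p = 0.001073) and -1.92 under whole FR (adjusted p = 2.355e-05), and its tip and base arrays did not overlap in any of them. GH3.3 was higher in the tip 9.73-fold under local FR (3.28, adjusted p = 4.322e-05) and 29.5-fold under whole FR (4.88, adjusted p = 1.265e-07), without overlap. In the control its tip was lower, at -1.48 (adjusted p = 0.04091), though the arrays overlapped, and after touch the difference was 0.01 (-1.097 to 1.12).

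These contrasts call a large share of all probe sets, against which the members' counts are read. In the control 2 of the 4 genes were called, with 28.7% of the tested probe sets called and 38.7% without overlap. Under local FR it was 2 of 4, with 29% called and 41% without overlap, under whole FR 2 of 4, with 35% called and 45.2% without overlap, and after touch 1 of 4, with 24.5% called and 39.5% without overlap. The control calls were lost without base replicate 3, where GH3.3 had a difference of -0.53 (adjusted p = 0.3665) and WES1 of -0.61 (adjusted p = 0.174). The GH3.3 call was also lost without tip replicate 2 (adjusted p = 0.1064) or 3 (adjusted p = 0.1036), and the WES1 call without tip replicate 1 (adjusted p = 0.07249) or 3 (adjusted p = 0.05711). The WES1 call after touch was lost when any of 5 of the 6 arrays was left out (adjusted p up to 0.17).

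Whether a treatment acted differently in the 2 tissues was tested as the difference between its effects at tip and base. The far-red effect on GH3.3 was larger at the tip by 4.76 under local FR (3.20 to 6.33, adjusted p = 0.001392), where 0.908% of the tested probe sets were called, and by 6.37 under whole FR (4.80 to 7.93, adjusted p = 5.743e-06), where 8.36% were. GH3.3 was the 1 member called in each, and it ranked 1 among single-gene probe sets in its direction in both. Without control base replicate 3 the differences were 3.81 (adjusted p = 0.0003037) and 5.41 (adjusted p = 5.584e-07).

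For WES1 the whole FR effect was 0.98 smaller at the tip than at the base (-0.98, -1.88 to -0.08), which was not called (adjusted p = 0.2001), so its whole FR effect at the base was not shown to differ from that at the tip. Without control base replicate 3 the difference was -1.30 (adjusted p = 0.05881). Its local FR effect differed by -0.47 (-1.37 to 0.43, adjusted p = 0.852). For the touch effect none of the 4 genes was called and 0% of the tested probe sets were, with 1.49 (-0.07 to 3.06, adjusted p = 0.6048) for GH3.3 the farthest from 0.

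Of 19 genes listed for the whole GH3 family, 14 had a single-gene probe set and are counted over the same tests: the 4 described, GH3.9, GH3.17 and 8 that carry a locus name only. Under local FR 1 of these 14 rose at the tip and none fell, where 2.05% of all tested probe sets were called, with a median difference of 0.01 against -0.02 over all of them. Under whole FR at the tip it was again 1, GH3.3, where 7.91% were called, with a median of 0.06 against -0.01. At the base none was called under local FR, where 1.06% of all were. Under whole FR at the base 2 rose, 1 fell and 11 were not called, where 13.3% of all tested probe sets were called, with a median of -0.04 against 0.00. Touch called none of the 14 in either tissue.

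Besides WES1, the gene that rose at the whole FR base was GH3.17, whose enzyme joins auxin to glutamate. It went from 4.47 ± 0.42 to 5.22 ± 0.42 (difference 0.74, SE 0.24, adjusted p = 0.03837). Like WES1 it was lower in the control tip than in the control base (-2.61, adjusted p = 1.644e-08). GH3.9 fell at the whole FR base from 4.22 ± 0.16 to 3.69 ± 0.10 (-0.52, adjusted p = 0.01753), and AT5G13370 was higher in the control tip than in the control base by 1.73 (adjusted p = 0.0001151), with no treatment call against control.

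The other auxin genes were read from lists by role. Against control, 2.05% of all tested probe sets were called at the tip under local FR and 7.91% under whole FR. At the base 1.06% were called under local FR and 13.3% under whole FR. Of the 4 measured of 14 auxin synthesis genes, YUC2, which encodes a flavin monooxygenase of the last step to auxin, rose at the tip under local FR (0.99, adjusted p = 0.02148) and whole FR (0.92, adjusted p = 0.01278), and the other 3 were not called there. At the base YUC4 fell under whole FR (-0.99, adjusted p = 0.04115), but not without control base replicate 3, its highest array (-0.40, adjusted p = 0.3336). The other 3 were not called at the base under whole FR, and none of the 4 was under local FR. WAG2, the gene of a kinase that phosphorylates PIN auxin exporters and the 1 measured of 17 transport genes, rose at the base under local FR (1.35, adjusted p = 0.03682, and 1.41 with adjusted p = 0.07764 without control base replicate 3) and whole FR (1.49, adjusted p = 0.002063) and was not called at the tip (0.28 and 0.20).

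Of 29 listed Aux/IAA repressor genes, the early auxin response class, 8 were measured. Among these, IAA34 and IAA29 rose at the tip under local FR (3.62 and 2.90) and under whole FR (3.38 and 3.34). Of all tested probe sets 2.05% and 7.91% were called there. At the base IAA29 alone was called, at 1.67 under local FR and 5.50 under whole FR, where 1.06% and 13.3% of all were called. Against control, IAA34 and GH3.3 were called in the same comparisons. The whole FR effect on IAA29 was larger at the base (tip minus base -2.16, adjusted p = 0.002367), opposite in sign to that of GH3.3. Both measured of 4 listed LBD genes, which act in auxin-driven organ formation, were not called in any comparison with control.

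Other routes of auxin inactivation were measured by 5 probe sets of 4 of the 5 listed genes. UGT74D1, which encodes a glucosyltransferase that acts on auxin, has a pair of them. One rose under whole FR by 1.40 at the tip (adjusted p = 8.958e-05) and by 1.29 at the base (adjusted p = 0.0001012). The other rose at the base by 0.72 (adjusted p = 0.00663) and had a difference of 0.18 at the tip that was not called, so the probe sets disagree there. The remaining 3 probe sets of the list were not called against control. Under whole FR 7.91% of all tested probe sets were called against control at the tip and 13.3% at the base. None of the 7 listed conjugate hydrolase genes, which release auxin from its conjugates, and none of the 18 receptor and response factor genes had a single-gene probe set, so they were not analysed here.

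**Figure D4:**
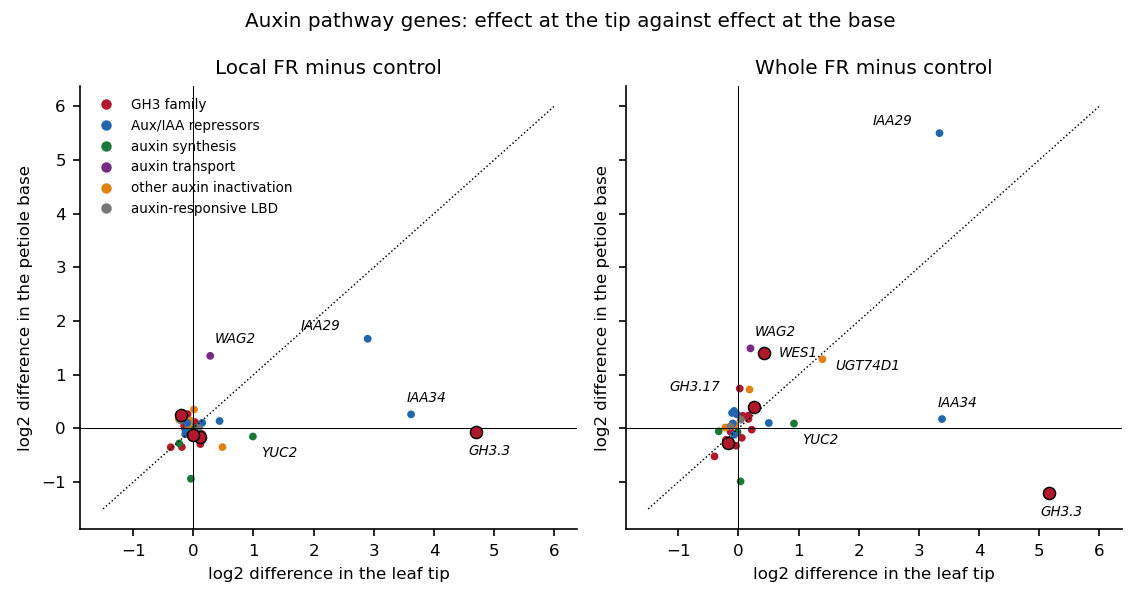
Log2 difference from control at the leaf tip (horizontal) and petiole base (vertical) for the auxin genes measured, under local FR (left) and whole FR (right); large outlined points are the 4 GH3 genes and the dotted line marks equal effects. GH3.3 lies far to the right near or below 0 at the base. IAA34 lies less far to the right, near 0 at the base, and WES1 lies above the line under whole FR.

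The probe sets most like GH3.3 and WES1 were found by Pearson's correlation of log2 values over the 24 arrays, among 11631 candidates outside the dimmest 30%. Rises that they share with GH3.3 or WES1 in these arrays follow largely from that choice and are no separate result. For GH3.3 they were AT5G62210 (r = 0.969), AT2G47780 (0.902) and AT3G21330 (0.901). All 3 rose at the tip under both treatments, AT5G62210 by 2.81 and 3.39, AT2G47780 by 4.40 and 5.39, and AT3G21330 by 3.82 and 3.42 under local and whole FR. AT2G47780 also rose at the base under whole FR (0.89, adjusted p = 0.004273), where GH3.3 had a difference of -1.20 that was not called. AT5G62210 was also the closest over the 8 group means (0.985), and the other pair left the first 3 by that measure. By Spearman's rank correlation the first 3 were different probe sets, led by AT2G31010 (0.814).

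For WES1 the closest were AT3G15410 (0.940), AT5G11560 (0.917) and AT5G63640 (0.913), and each rose at the base under whole FR, by 0.67, 0.36 and 0.83. AT5G11560 stayed among the first 3 by rank correlation (0.915), while none of them did over the 8 group means, where AT1G69160 led (0.995). The points share their 8 groups, so the correlations are descriptions and carry no p. Between GH3.3 and WES1 themselves the correlation was -0.15 over the 24 arrays, 0.41 over the 12 tip arrays and 0.22 over the 12 base arrays.

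**Figure D5:**
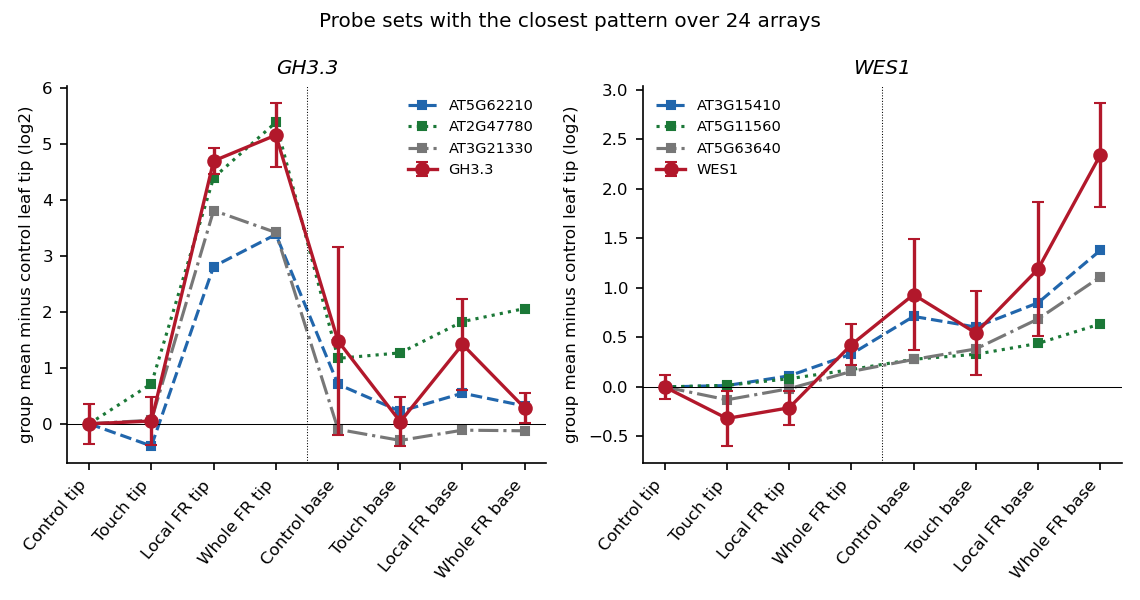
Group mean minus the control leaf tip mean (log2) over the 8 groups for GH3.3 (left) and WES1 (right), with ±1 SD (n = 3) for these genes, and for the 3 probe sets most like each. The GH3.3 set peaks in the far-red tips, and the WES1 set is highest in the whole FR base. The probe sets were chosen for likeness over these same arrays, so the shared shape follows largely from the choice.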

How the data were processed

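Biotin-labelled total RNA from 24 samples was hybridised to Affymetrix arrays. Per the labels, the authors made log2 values with RMA at the core gene level in Expression Console; its version, the annotation release and the genome build are not given in the sources used here, so no coordinates are printed. RMA makes the signal distributions of arrays equal, so a change common to all transcripts of a sample would not show. The file held 38408 probe sets from -0.479 to 13.4, of which 16746 had 1 gene, 758 several and 20904 none listed. The 17504 with a gene were tested. Symbols come from the platform annotation, updated through the RefSeq gene table, which held 16601 of the single-gene probe sets. GH3 family membership of genes with a locus name only rests on lists written for this work.

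One fit in limma 3.58.1 under R 4.3.3 took every array, with a mean for each group and 16 residual degrees of freedom, moderated variances without trend, two-sided tests and Benjamini-Hochberg adjustment over all tested probe sets, in 19 comparisons. Those that share a control or touch group are not independent of each other. Genes named are the 4 members, other measured GH3 genes, up to 3 called genes of each auxin list, and the 3 probe sets most like each called member. Marker genes that stood out in single arrays were named after their values were seen. Members and lists were chosen with earlier results of these data known. The fit was also run on simulated data with independent noise, without deviations shared between arrays. That run says nothing about such deviations, and its outcome is not given here. Whether equal replicate numbers pair arrays was checked by the correlation of their deviations from group means: in 1 of 28 pairs of groups, local FR and control base, all 3 exceeded 0.1. Base replicate 3 alone gave 0.437 between control and local FR, 0.231 between control and touch, and 0.191 between touch and local FR. With whole FR base replicate 3 the control, touch and local FR arrays gave 0.0009, 0.008 and 0.041. The replicate number is otherwise not known to link samples. Alternatives were the replicate number as a block, cyclic loess between arrays, a fit without the dimmest 30% or with all probe sets, robust estimation with a variance trend, a fit to the compared groups alone, and each array left out in turn. The 3 arrays per group limit the precision.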

Additional observations from a re-analysis of the deposited data

Results flagged for a closer look

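GH3.3 stood out because its far-red effects differed between the tissues by a test of the difference itself. The local FR effect was larger at the tip than at the base by 4.764 on the log2 scale (limma adjusted p = 0.001392), and by 3.81 to 5.39 with each of the 12 arrays left out in turn. The whole FR effect was larger at the tip by 6.365 (adjusted p = 5.743e-06), and by 5.41 to 6.995 with each array left out. All 3 arrays of each far-red tip group lay above the control tip arrays, while at the base the far-red and control arrays overlapped. Groups of 3 are too small for a test of single outlying arrays.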

How the results depend on the processing

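For the 76 results of the 4 genes, 965 values were recomputed: 937 kept their side of the threshold, 21 lost the call, 7 gained one and 0 called values changed sign. Of the 937, 48 changed sign while uncalled in both settings. In 12 of 19 comparisons the number of members called stayed the same under every alternative, among them both far-red comparisons with control at the tip, where GH3.3 kept 4.59 to 4.91 (local FR) and 4.85 to 5.40 (whole FR) with each array left out. With the replicate block, 2 members in place of 1 were called between whole FR and touch at the base (GH3.1, adjusted p = 0.03877), and GH3.4 between tip and base under local FR (adjusted p = 0.0399); it changed no other member call. Between tip and base in the control, 2 members became 1 under cyclic loess, with all probe sets, with the variance trend and with only the groups compared, each time by the loss of GH3.3 (adjusted p = 0.06033 to 0.1728), and after touch 1 became 0 under cyclic loess and with all probe sets (WES1, adjusted p = 0.05829 and 0.068). Whole FR against local FR at the base went from 1 to 0 with only the groups compared. With each array left out, the count ran from 0 to 2 between tip and base in the control, 0 to 1 between tip and base after touch, 0 to 1 for whole against local FR at the base, 1 to 2 for whole FR against touch and against control at the base, and 0 to 1 for touch against control at the base. Between tip and base under local FR it rose from 2 to 3 through GH3.4, also with the variance trend (adjusted p = 0.04251) and without local FR tip replicate 3 (adjusted p = 0.01301). The probe sets called also moved: local FR against control at the tip had 359 calls, or 126 with only the groups compared and 556 with all probe sets; whole FR had 1384, or 696 and 2900; and whole FR at the base had 2323, or 4266 with all probe sets. Leaving out control base replicate 3 for the auxin list and marker genes named was chosen after seeing the data. The cause was not tested beyond what these settings change by construction, fewer arrays or other probe sets. Low signals, not tested against background, limit GH3.1, GH3.4, the control level of GH3.3 and the tip levels of WES1, and 3 arrays per group limit all 4 genes.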
